A study of Homo sapiens with 2 samples.

Results

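The genes considered here encode enzymes that write, copy and remove cytosine methylation in human DNA, together with cofactors and related proteins. They are 10 genes chosen by name (DNMT1, UHRF1, UHRF2, DNMT3A, DNMT3B, DNMT3L, TET1, TET2, TET3 and TDG) out of 19974 protein-coding genes on chromosomes 1 to 22 and X. The measurement is a chromatin immunoprecipitation of KDM1B with sequencing, 1 KDM1B ChIP library set against 1 input library. Both came from MDA-MB-231, a triple-negative breast cancer cell line, stably carrying a 3xFLAG-tagged KDM1B from a retroviral vector. The ChIP used an anti-FLAG antibody, so what was precipitated is the tagged protein expressed from the vector, and cells without the tag were not analysed here. Neither library was replicated. The values therefore carry no replicate error, and differences between them were not tested. The deposited list holds 78536 peaks and the log2 enrichment of ChIP relative to input at each, without read counts, and depth and counting error are therefore unknown.

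KDM1B, also called LSD2, is a flavin-dependent demethylase that removes methyl groups from a lysine in the tail of histone H3. DNA methylation and this histone mark are linked, since the de novo methyltransferases bind histone tails that lack it, and in mouse oocytes KDM1B is needed to set maternal methylation imprints. DNMT1 copies methylation onto the new strand after replication, and UHRF1 recognises hemimethylated DNA and brings DNMT1 there. DNMT3A and DNMT3B place new methyl groups, DNMT3L is their inactive cofactor of germ cells and early embryos, the TET dioxygenases oxidise methylcytosine, and TDG cuts out the oxidised base.

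KDM1B peaks covered almost the whole of the maintenance genes DNMT1 and UHRF1 and far less of the other members. A peak was assigned to a gene when its midpoint lay in the gene span or within 5 kb of it. By this rule 9 of the 10 genes had a peak, against 67.5% of all protein-coding genes. Protein-coding genes with 80% to 125% of a member's length are called genes of like length here, and 19.6 to 31.1% of them lacked a peak, depending on the member, so that the count of 9 is close to what such genes show. The covered share of the span told the members apart more than the presence of a peak. The maintenance pair had 87.1% of its 120.7 kb under peaks, the 3 de novo genes 12.4% of 177.2 kb and the 3 TET genes 8.26% of 419.9 kb. The pooled share of the maintenance pair was 7.04 times that of the de novo genes and 10.5 times that of the TET genes. With the stronger 50% of the peaks by log2 ratio these became 28.9 and 17.3 times, and the de novo genes, at 2.79%, fell below the TET genes, at 4.67%. None of these ratios allows for gene length. With all peaks, the median share of genes of like length was 2.63% for DNMT1, 2.73% for UHRF1 and 1.07 to 1.17% for the longer TET genes. Single genes carried the pooled shares of the other classes, which were 4.75% for the de novo genes without DNMT3B and 0.91% for the TET genes without TET3. At least 50% of the span was covered in 2 of the 10 genes, DNMT1 and UHRF1, against 7.28% of all protein-coding genes.

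**Figure D1:**
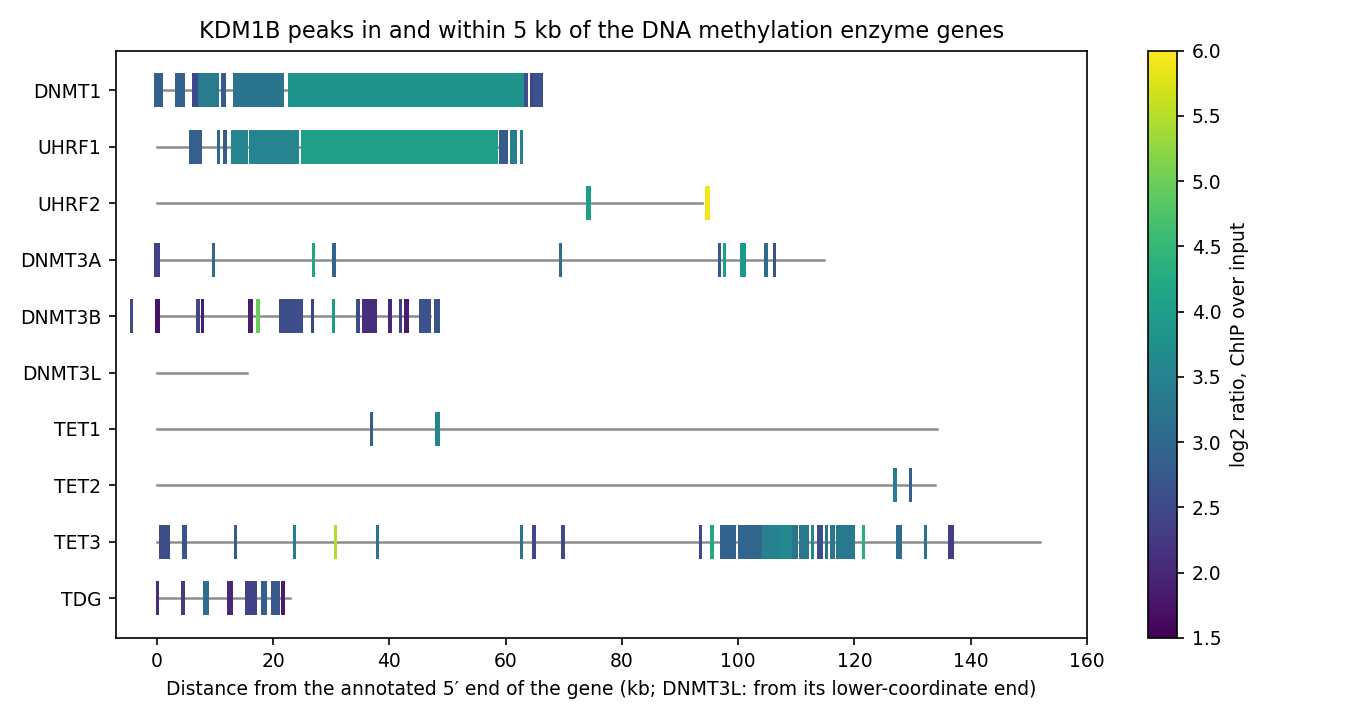
Each grey line is 1 gene, drawn from its annotated 5′ end (DNMT3L, of unknown strand here, from its lower coordinate), with the distance in kb on the horizontal axis. Coloured blocks are KDM1B peaks, with the log2 ratio of ChIP over input as colour. Wide blocks fill most of DNMT1 and UHRF1, a dense run of peaks lies in the 3′ part of TET3, and DNMT3L has no block.

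DNMT1, the maintenance methyltransferase (chr19:10133346-10194953, minus strand, RefSeq), had 10 peaks, of which 7 had their midpoint inside the gene and 3 beyond its 3′ end. Together they covered 56.0 of 61.6 kb, or 90.9% of the span. Of 2009 genes of like length, 9 had a higher covered share, and their median was 2.63% (quartiles 0 and 12.7%). These 9 included the splicing factor gene PRPF6 (99.0%) and the ribosome-associated factor gene GCN1 (98.1%). Most of the covered length of DNMT1 belonged to 1 peak, chr19:10131809-10172428, which was 40.6 kb wide with a log2 ratio of 3.79. It was the 7th widest of the whole list, and it ran over the 3′ end of the gene. A second peak of 8.70 kb (3.23) lay next to it on the 5′ side, and the 50% of the gene on its 3′ side was covered to 100%, against 81.9% of the 50% on its 5′ side. The longest uncovered stretch within DNMT1 was 2.05 kb.

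UHRF1, which guides DNMT1 to hemimethylated DNA (chr19:4903080-4962154, plus strand), showed the same layout. It had 9 peaks, 6 inside and 3 beyond its 3′ end, which covered 49.0 of 59.1 kb, or 83.0%. Of 2056 genes of like length, 22 had a higher share, DNMT1 among them, and their median was 2.73%. One peak, chr19:4927855-4961725, was 33.9 kb wide with a log2 ratio of 4.03, the 10th widest of the list. The 3′ 50% of UHRF1 was covered to 99.0%, against 67.0% of the 5′ 50%. The uncovered stretch of 5.58 kb at its annotated 5′ end lies before the 3 start sites that RefSeq lists for it, which are 6.42 to 7.29 kb into the gene span. That part overlaps the neighbouring gene ARRDC5, and 3 of the UHRF1 peaks lie in both genes. The microRNA gene MIR4747 lies inside UHRF1 and under its peaks over 100% of its length.

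By number of peaks the maintenance pair stood lower among genes of like length than by covered share. The number of peaks of DNMT1 was at the 75.6th percentile and that of UHRF1 at the 73.2nd, against the 99.6th and 98.9th by covered share, a tied gene counting as 0.5. DNMT1 and UHRF1 are both on chromosome 19. Among the 150 genes of that chromosome within 1.5-fold of its length, none had a higher covered share than DNMT1, and the median was 3.93%. Among 165 such genes for UHRF1, 4 were higher, with a median of 3.99%.

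**Figure D2:**
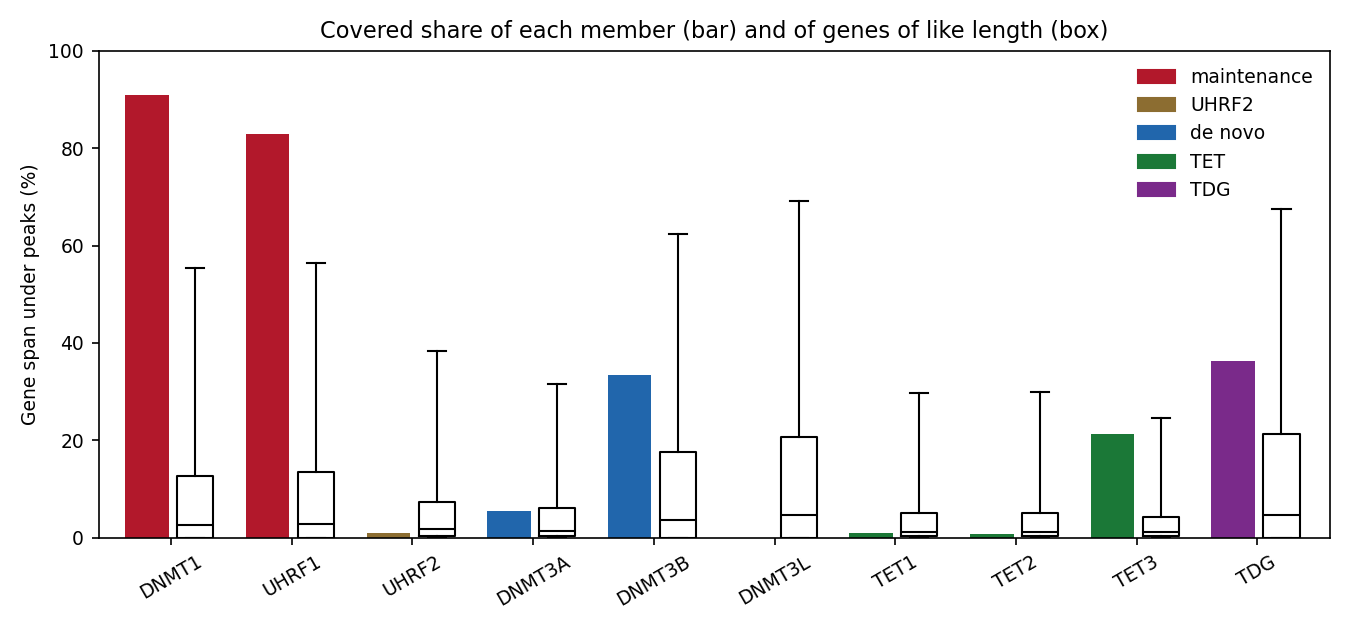
Bars give the percentage of each member's gene span under peaks, coloured by class. The box to the right of each bar gives genes with 80% to 125% of the member's length (line, median; box, quartiles; whiskers, the 5th and 95th percentiles). The bars of DNMT1 (90.9%) and UHRF1 (83.0%) stand above the whiskers, those of UHRF2, TET1 and TET2 are below the medians, and DNMT3L is at 0.

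UHRF2, the paralog of UHRF1, was nearly free of peaks. It had 1 peak inside its 93.9 kb (chr9:6487092-6487964, log2 ratio 3.99) and 1 beyond the 3′ end, and 0.93% of its span was covered. The median of 1645 genes of like length was 1.89%, and 1014 of them had a higher share. The peak beyond the end, chr9:6507508-6508425, had its midpoint 912 bp from the gene and a log2 ratio of 5.93, above 99.7% of all peaks in the list and the highest value of any member. No peak midpoint came nearer than 74.3 kb to the annotated start of UHRF2.

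Of the de novo genes, DNMT3B had many mostly narrow peaks of low ratio, DNMT3A fewer and also narrow ones, and DNMT3L none. DNMT3B (chr20:32762385-32809356) had 16 peaks with log2 ratios of 1.71 to 4.99, which covered 15.7 of 47.0 kb, or 33.5%. That was the 85.0th percentile of 2217 genes of like length, whose median was 3.64%, and the 56.1st with the stronger 50% of the peaks. Among genes of chromosome 20 within 1.5-fold of its length it was the 71.7th, with a median of 12.2%. The widest of the 16 was 4.06 kb, and the strongest, chr20:32779543-32780113, lay over a RefSeq start site 17.5 kb into the gene span. DNMT3A (chr2:25227874-25342590, minus strand) had 10 peaks inside the gene, from 500 to 1088 bp wide with log2 ratios of 2.38 to 4.14. They covered 6.19 of 114.7 kb, or 5.40%, at the 73.0th percentile of genes of like length (median 1.43%). Of these 10 peaks, 5 lay within 18.0 kb of the 3′ end, and the longest stretch without a peak was 38.4 kb. DNMT3A also has internal start sites 90.3 to 90.5 kb into the gene, and the nearest peak midpoint was 6.28 kb or more from them. DNMT3L (chr21:44246339-44261897) had no peak in its 15.6 kb or within 5 kb, as did 690 of 2222 genes of like length (31.1%). Its nearest peak midpoint, 5.49 kb away with a log2 ratio of 3.67, lay in the neighbouring gene ICOSLG, just outside the distance set here. The nearest peak on the other side of that limit was one of DNMT3B, 4.31 kb upstream with a ratio of 2.55. For TET3 a peak lay just outside at 5.07 kb (2.58), in the neighbouring gene BOLA3.

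Among the TET genes, TET3 was densely marked while TET1 and TET2 each had a pair of short peaks. TET3 (chr2:73983631-74135498) had 26 peaks, all inside the gene, with log2 ratios of 2.31 to 5.49. They covered 32.2 of 151.9 kb, or 21.2%, and 70 of 1184 genes of like length had a higher share (median 1.07%). A run of 14 peaks spaced no more than 2 kb apart, chr2:74076970-74105379, held 71.0% of the covered length within 28.4 kb. The 3′ 50% of TET3 was covered to 33.5%, against 9.01% of the 5′ 50%. Its strongest peak, 500 bp wide, stood apart from this run, 30.8 kb from the 5′ end. TET1 (chr10:68560337-68694487) had 2 peaks, 500 and 826 bp wide with log2 ratios of 2.86 and 3.55, both between 36.9 and 48.3 kb from the 5′ end. They covered 0.99% of 134.2 kb, against a median of 1.17% in 1324 genes of like length. TET2 (chr4:105145875-105279803) also had 2 peaks, 566 and 556 bp wide with log2 ratios of 3.40 and 2.84, near its 3′ end, 127.0 and 129.6 kb from the 5′ end. They covered 0.84% of 133.9 kb, against a median of 1.17% in 1319 genes of like length, and both lie as well in the long non-coding RNA gene TET2-AS1, so the list does not assign them to either gene.

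TDG, the glycosylase that removes oxidised methylcytosine (chr12:103965872-103988874), had 8 peaks in 23.0 kb, the densest set of the members at 3.48 peaks per 10 kb. They covered 36.3% of the span, the 83.3rd percentile of 2302 genes of like length (median 4.62%) and the 63.9th with the stronger 50% of the peaks. The 3′ 50% of TDG was covered to 55.0%, against 17.5% of the 5′ 50%. Of the 9 members with a peak, 8 had more of the 3′ 50% than of the 5′ 50% under peaks, and TET1, with 0% on the 3′ side and 1.98% on the 5′ side, was the exception. The side was set by 1 peak inside the gene in UHRF2 and by 2 in TET1 and TET2, and in DNMT3A it was 6.87% against 3.93%. Among the 9959 protein-coding genes with a known strand and a covered span, 52.2% had more of the 3′ 50% under peaks.

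**Figure D3:**
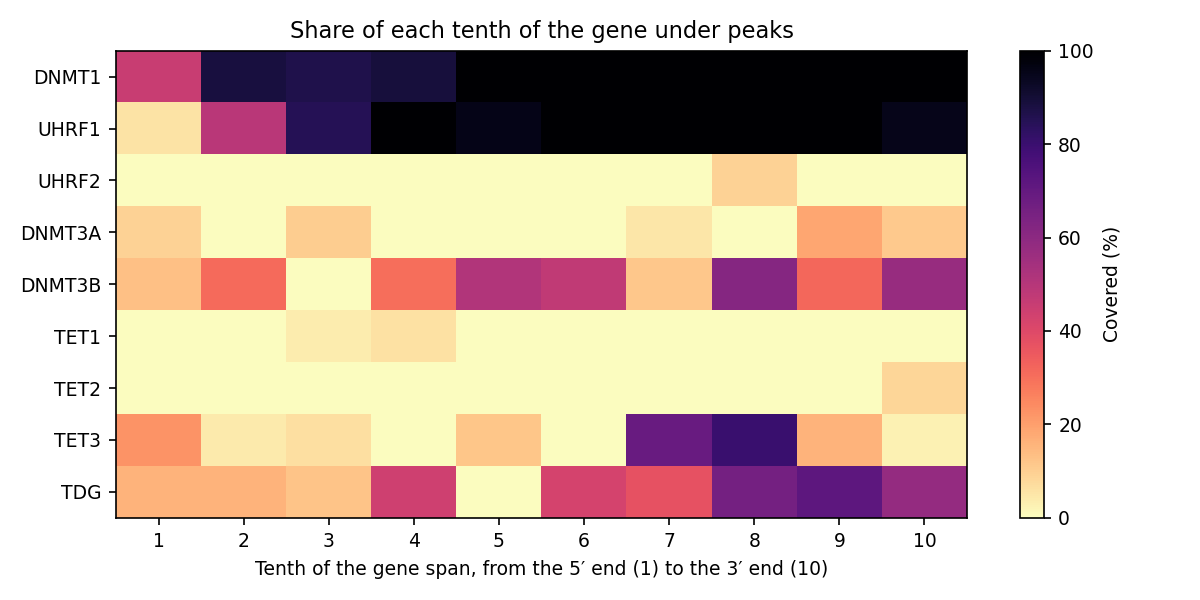
Each row is 1 member with a known strand, cut into 10 equal parts from the 5′ end to the 3′ end, and the colour gives the percentage of each part under peaks. In DNMT1 the first part was covered to 45.5% and the last 6 parts to 100%. In TET3 the parts 7 and 8 held 68.8% and 80.2%, and UHRF2, TET1 and TET2 stay near 0 in nearly every part.

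The start sites of the members differed in whether a peak lay over them. RefSeq promoter windows, 250 bases before to 50 after an annotated start on GRCh38.p14, were given for 9 members, all but DNMT3L. The outermost listed window overlapped a peak in 6 of the 9 (DNMT1, UHRF1, DNMT3A, DNMT3B, TET3 and TDG), against 31.2% of all protein-coding genes with such a window. Of these windows, that of TET3 lay 1.28 kb into the gene span, that of UHRF1 6.42 kb and that of DNMT3B, its only one, 17.5 kb. By another measure, a midpoint within 1 kb of either end of the gene span, 6 of the 10 members had a peak, against 41.9% of all protein-coding genes. These were not the same 6 genes. DNMT1, DNMT3A, DNMT3B and TDG had such a peak at the 5′ end, UHRF1 and UHRF2 only at the 3′ end, and TET3 had none. The 6 windows below show the contrast between members under a peak (DNMT1, UHRF1, TET3 and DNMT3B) and without one (UHRF2 and TET1). Capitals mark CG dinucleotides, the sequence that the enzymes among the members act on, and each window is written 5′ to 3′ on the strand of the gene. The windows are chr19:10194904-10195203 (minus strand) for DNMT1, chr19:4909251-4909550 (plus) for UHRF1 and chr2:73984660-73984959 (plus) for TET3. The other windows are chr20:32779602-32779901 (plus) for DNMT3B, chr9:6412949-6413248 (plus) for UHRF2 and chr10:68560087-68560386 (plus) for TET1.
DNMT1: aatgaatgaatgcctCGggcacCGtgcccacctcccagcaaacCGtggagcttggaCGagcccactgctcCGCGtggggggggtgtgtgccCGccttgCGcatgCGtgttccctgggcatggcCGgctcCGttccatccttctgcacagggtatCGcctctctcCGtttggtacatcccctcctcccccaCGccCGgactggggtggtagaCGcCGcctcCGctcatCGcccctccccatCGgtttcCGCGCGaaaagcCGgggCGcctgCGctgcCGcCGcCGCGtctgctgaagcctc
UHRF1: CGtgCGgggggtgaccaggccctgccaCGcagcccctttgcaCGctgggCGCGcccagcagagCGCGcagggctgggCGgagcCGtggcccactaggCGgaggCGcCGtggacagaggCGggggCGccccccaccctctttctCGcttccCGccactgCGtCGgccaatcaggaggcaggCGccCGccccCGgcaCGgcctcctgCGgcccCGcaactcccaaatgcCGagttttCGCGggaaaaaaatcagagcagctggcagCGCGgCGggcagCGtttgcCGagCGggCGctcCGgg
TET3: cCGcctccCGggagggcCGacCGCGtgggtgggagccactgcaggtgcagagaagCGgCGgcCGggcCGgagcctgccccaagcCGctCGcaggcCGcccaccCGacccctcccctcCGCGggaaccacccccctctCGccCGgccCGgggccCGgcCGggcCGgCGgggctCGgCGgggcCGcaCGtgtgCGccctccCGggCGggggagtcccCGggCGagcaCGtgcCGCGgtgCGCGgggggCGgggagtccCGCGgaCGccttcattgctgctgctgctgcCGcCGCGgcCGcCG
DNMT3B: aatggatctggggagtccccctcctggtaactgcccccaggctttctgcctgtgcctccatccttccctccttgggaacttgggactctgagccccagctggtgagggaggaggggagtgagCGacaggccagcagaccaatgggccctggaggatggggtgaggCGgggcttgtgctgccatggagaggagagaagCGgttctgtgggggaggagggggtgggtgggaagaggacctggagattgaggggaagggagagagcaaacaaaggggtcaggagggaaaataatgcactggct
UHRF2: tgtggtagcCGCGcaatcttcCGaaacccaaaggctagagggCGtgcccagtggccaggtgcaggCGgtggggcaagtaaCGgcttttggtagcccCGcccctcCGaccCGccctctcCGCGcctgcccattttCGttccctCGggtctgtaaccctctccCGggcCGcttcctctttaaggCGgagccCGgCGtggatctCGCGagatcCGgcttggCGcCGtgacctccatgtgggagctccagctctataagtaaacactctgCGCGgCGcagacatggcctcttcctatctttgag
TET1: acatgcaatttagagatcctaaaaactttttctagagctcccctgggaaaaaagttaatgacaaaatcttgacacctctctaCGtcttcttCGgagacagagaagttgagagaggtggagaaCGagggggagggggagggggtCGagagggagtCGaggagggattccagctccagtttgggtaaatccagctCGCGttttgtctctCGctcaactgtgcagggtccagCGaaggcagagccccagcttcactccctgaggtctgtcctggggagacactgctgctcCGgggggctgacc

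The number of CG dinucleotides did not fully sort the printed windows by the presence of a peak. DNMT1 had 30, UHRF1 36 and TET3 45 CG in 300 bases, all of them under peaks with log2 ratios of 2.86, 2.86 and 2.55. The DNMT3B window, at an internal start 17.5 kb into the gene, had 3 CG and lay under a peak of 4.99. No window was listed at the annotated 5′ end of DNMT3B. The peak there, with its midpoint 149 bp into the gene, had a log2 ratio of 1.71, above 0.33% of all peaks. UHRF2 had 26 CG and no peak, and TET1 had 10 and no peak. Of the outermost windows not printed, those of DNMT3A and TDG had 18 and 22 CG and lay under a peak, and that of TET2 had 13 and no peak. A second TET2 window, 1.00 kb into the gene, held 35 CG, and its nearest peak midpoint was 126.0 kb away. Over 15812 protein-coding genes, windows under a peak had a median of 29 CG (quartiles 22 and 36) and windows without one a median of 16 (quartiles 5 and 28). The letters TTTCCCGC, TTTGGCGC and TTTCGCGC, forms of the site of E2F factors, were searched on both strands. A match was found in 3.77% of all the outermost windows, and among the members in DNMT1 and UHRF1. The match in DNMT1 was TTTCGCGC on the opposite strand, its first base in the printed window lying 2 bases before the start. In the printed window of UHRF1 it was TTTCCCGC, also on the opposite strand, beginning 14 bases before the start. A further UHRF1 window, chr19:4909894-4910193, held TTTCGCGC on the gene's strand, 160 bases before its start. No 2 matches overlapped, and such a match describes letters and not a bound site.

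The log2 ratios put the members in another order than the covered share did. Over the whole list the median log2 ratio was 2.99 (quartiles 2.58 and 3.52), and 38 of the 85 member peaks were above it. DNMT1 had 3 of 10 peaks above the median of the list and UHRF1 6 of 9, and in both genes the widest peak was also the strongest. DNMT3B had 2 of 16 above and TDG 1 of 8. A log2 ratio below 2 was found in 4 of the 16 DNMT3B peaks and in 1 of the 8 TDG peaks, against 2.38% of all peaks. TET3 had 16 of 26 and DNMT3A 6 of 10 above the median, and both UHRF2 peaks were above it. The class medians were 2.90 for the maintenance pair, 2.61 for the de novo genes and 3.21 for the TET genes. The ratios of the strongest narrow peaks, such as 5.49 in TET3 and 5.93 beside UHRF2, carry an unknown counting error, since the input reads behind them are not given in the list.

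**Figure D4:**
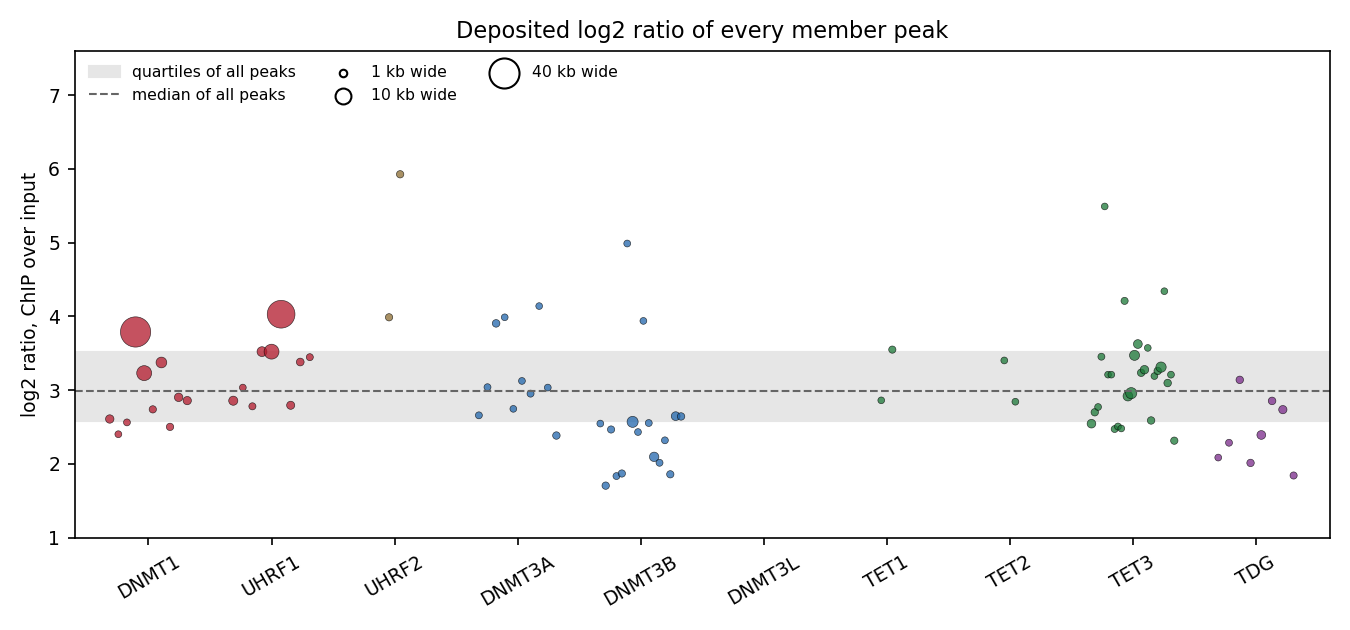
Each point is 1 of the 85 member peaks, with its log2 ratio of ChIP over input on the vertical axis, point area growing with width, and peaks of a gene ordered by coordinate. The grey band and dashed line are the quartiles and the median (2.99) of all 78536 peaks. The points of DNMT3B and TDG lie mostly below the line, and the large points of DNMT1 and UHRF1 above it.

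The surroundings of the members also differed. In the 500 kb on each side, outside the gene and its 5 kb, peaks covered 14.8% around DNMT1 and 16.8% around UHRF1, so that the covered share of the genes was 6.13 and 4.95 times that of their surroundings. At least 50% of the span was under peaks in 10 of 34 protein-coding genes within 500 kb of DNMT1 and in 3 of 17 around UHRF1, against 7.28% of all protein-coding genes. The 10 include PPAN, P2RY11 and the joint entry PPAN-P2RY11, so they are not all separate loci. Among the covered genes were EIF3G (85.7%), a translation initiation factor gene near DNMT1, and CHAF1A (80.7%), a chromatin assembly factor gene near UHRF1. TET1 showed the reverse, with 0.99% of the gene and 20.9% of its surroundings under peaks. All 16 other protein-coding genes within 500 kb of TET1 had a peak, against 67.5% of all protein-coding genes. Among the 16 were CCAR1 (86.2% covered), a coactivator of transcription and apoptosis regulator, and DDX21 (69.4%), a nucleolar RNA helicase. UHRF2 and TET2 lay in surroundings with 0.05% and 0.36% covered. DNMT3A, at 5.40%, was close to its surroundings at 4.96%. DNMT3B, TET3 and TDG had 2.59, 2.90 and 3.43 times the share of their surroundings, and DNMT3L had no peak where its surroundings had 7.76%. PPAN, P2RY11, EIF3G, CHAF1A, CCAR1 and DDX21, and PRPF6 and GCN1 above, were named after their values were seen.

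**Figure D5:**
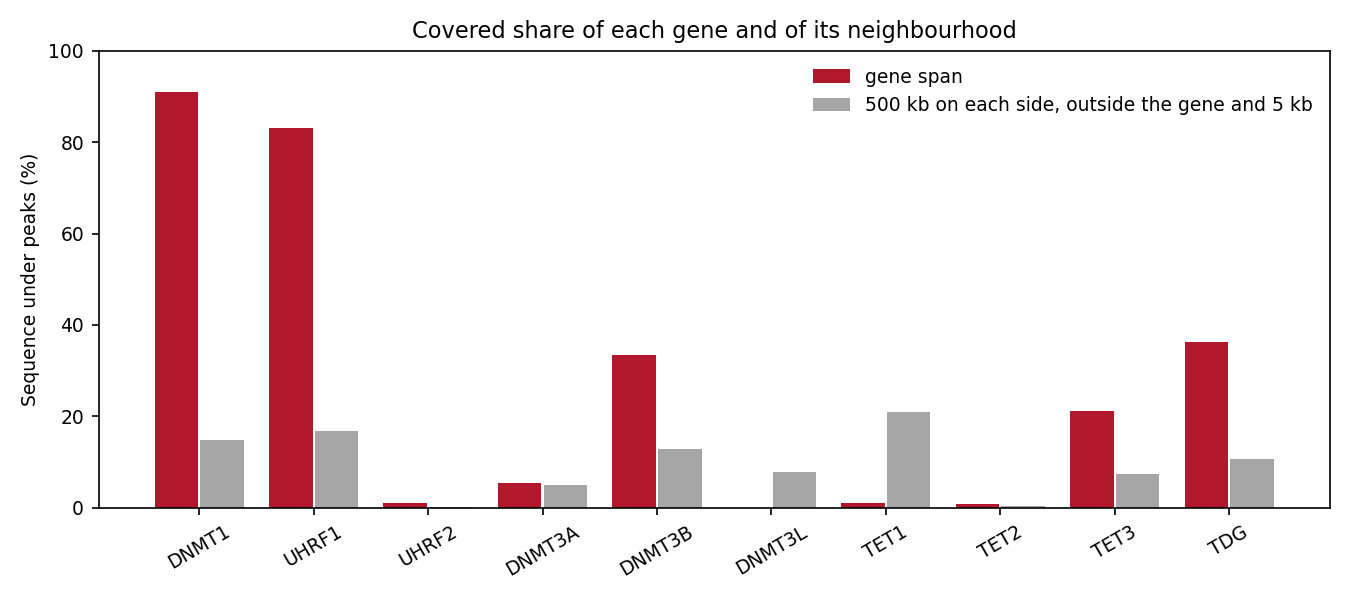
Red bars give the percentage of each gene span under peaks, and grey bars that of the 500 kb on each side outside the gene and its 5 kb. DNMT1 and UHRF1 exceed their surroundings (90.9% beside 14.8%, 83.0% beside 16.8%), and TET1 falls below its own (0.99% beside 20.9%).

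A further 41 genes of the DNA methylation pathway were taken as a list by function. A peak in the gene or within 5 kb was found in 36 of them, against the 67.5% of all protein-coding genes given above, and the median covered share was 15.1%, against 1.52% over all protein-coding genes. Their share was above the midpoint of genes of like length in 33 of 41. Partners of maintenance methylation (HELLS, CDCA7, USP7, PCNA, LIG1 and TRIM28) had peaks in 6 of 6, with a median of 47.0% covered. At least 50% of the span was covered in 3 of these partners, in 9 of the 41 genes and in 7.28% of all protein-coding genes. CDCA7, which recruits the remodeller HELLS, had 71.2% covered, the DNA ligase gene LIG1 66.0% and HELLS 55.2%. Genes listed as readers of methylation, by their MBD or ZBTB family, had peaks in 6 of 7 with a median of 6.68%. Base excision repair genes had peaks in 6 of 9 with a median of 15.1%. Genes of the methyl donor and of oxidation cofactors had peaks in 7 of 7 with a median of 11.4%, TET partners in 4 of 5 with 34.6%, and histone-linked genes, KDM1B included, in 7 of 7 with 11.2%. Coverage of at least 50% was also found in 2 TET partners, 2 base excision repair genes, 1 gene listed as a reader and 1 histone-linked gene. The highest covered shares of the list were at GADD45B, a stress-induced gene linked to demethylation (89.2% of 2.13 kb), at UNG, the uracil glycosylase gene (77.1%), and at PARP1, the strand break sensor (71.9%). The 3 longest genes of the list without a peak were POLB, a repair polymerase gene, SMUG1, a glycosylase gene, and CXXC4, which encodes a CG-binding protein.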

How the data were processed

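MDA-MB-231 cells with 3xFLAG KDM1B gave 1 anti-FLAG ChIP library and 1 input library. The submitters' processing notes name Trim Galore 0.4.5, Bowtie2 2.2.9 and the build hg38. How peaks were called, filtered and scaled was not stated in the labels (not given in the sources used here). The authors deposited 78536 peaks, each with its coordinates and the log2 ratio of ChIP to input. That the base is 2 was read from the values: 89.5% of the linear ratios were whole-number fractions (denominator up to 100, tolerance 1e-06) of the commonest one, against 2.05% with base e and 3.81% with base 10. The deposited ratio is the authors' own and served to describe and rank peaks within the list. Coordinates of peaks are printed as deposited, without a stated counting base. Exons and introns were not used here.

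Genes are RefSeq spans of GRCh38.p14, the same assembly as hg38, and strand came from the RefSeq promoter table, which holds 15813 of the 19974 protein-coding genes. DNMT3L has no strand there. A peak was assigned by midpoint to a gene with 5 kb on each side. The covered share is the part of the gene span without flanks under any peak. Ranks are percentiles among protein-coding genes with 80% to 125% of the length, a tie counting as 0.5. No test was run, since each group has 1 library. The interval counts were checked on simulated data against a direct count. Members and lists were chosen with earlier results of these data known. All 10 members are named, and of the pathway list the 3 highest covered shares, the 3 longest genes without a peak and the covered partners of maintenance, the last chosen after their values were seen. An item of the pathway list is not reported here. Alternatives were other distances, any overlap of 1 bp, the stronger 50% of the list, joined peaks and other definitions of like length. Python 3.11.15, numpy 2.4.6, pandas 2.3.3, scipy 1.17.1 and matplotlib 3.10.9 were used.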

Additional observations from a re-analysis of the deposited data

How the results depend on the processing

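The count of members with a peak was 9 at a distance of 0 kb (58.2% of all protein-coding genes) and of 1 kb (62.6%), with any overlap of 1 bp (67.9%), in the stronger 50% of the list (39311 peaks, 55.7%) and with peaks within 1 kb joined (67.1%). It was 10 at 10 kb (71.3%), where DNMT3L gained a peak. The 85 member peaks became 38 in the stronger 50% and 52 after joining. The covered share in the stronger 50% was 80.7% for the maintenance pair, 2.79% for the de novo genes, 4.67% for the TET genes and 4.38% for TDG. After joining it was 89.5%, 13.9%, 8.76% and 42.9% in the same order, and with 5 kb on each side of the gene 80.4%, 11.8%, 7.80% and 25.8%. UHRF2 had 1.72% with 5 kb on each side. The maintenance pair kept the highest share of the 3 classes in each of these settings, and the order of the de novo and TET genes turned round in the stronger 50%. Most peaks of DNMT3B and TDG had low ratios and were absent from the stronger 50%, the widest peak of each gene among them.

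The number of members above the midpoint of genes of like length, 6, ran from 6 to 8 over the 5 alternatives. The genes that crossed it were TET2 at a percentile of 51.2 among genes of the same chromosome, and UHRF2 at 52.6 and TET1 at 50.5 in the stronger 50%. DNMT1 stayed at the 99.5th percentile or above and UHRF1 at the 97.6th or above wherever the covered share was ranked. The number of members with a peak within 1 kb of a gene end, 6, was 4 at 500 bp, where 31.4% of all protein-coding genes had one, 8 at 5 kb (59.4%) and 1 in the stronger 50% (16.5%). No paired analysis was possible because each group has 1 library. Without read counts, the limits that depth sets are unknown.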
